A study of Mus musculus with 2 samples.

Results

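The 9 genes described here are *Trim72*, *Dysf*, *Cav3*, *Ano5*, *Dmd*, *Dag1*, *Sgca*, *Sgcb* and *Sgcd*, which serve membrane repair in muscle fibres or form the dystrophin complex. The rule names them and uses no measured value, although the list was drawn up with earlier results of these data known. Their peaks were all those in the authors' deposited table whose summit, the position of highest fragment coverage, lay inside the RefSeq span of a gene or within 20 kb of it. This gave 63 summits out of 51356 in the whole table, in gene windows that together cover 4.17 Mb.

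The experiment was chromatin immunoprecipitation followed by sequencing (ChIP-seq) in C2C12 cells, an established mouse myoblast line. The immunoprecipitated group was 1 library made with the DUX4 antisera MO488 and MO489. Its control was 1 library labelled anti-HA, while the study's own design description gives GFP as its antibody. Both libraries came from the same single clone, which carries the MMH_codon-altered transgene and was induced with doxycycline at 2 ug/ml for 18 h. MMH joins the homeodomains of mouse Dux, a transcription factor of the early embryo, to the C-terminal end of human DUX4, and the antisera therefore recognise a chimera and not native Dux. Per the file headers, 26253175 of 32659686 antisera fragments and 23412256 of 40115471 control fragments remained after duplicate removal. The share removed was 20% in the antisera library and 42% in the control. With 1 library per group there was no replicate check, no difference could be tested, and the intervals below are 95% exact Poisson or binomial intervals that cover counting error only. Binding alone was measured, so nothing below says whether a gene was expressed.

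In striated muscle, dystrophin links the actin cytoskeleton inside the fibre to dystroglycan in the membrane, and dystroglycan binds laminin outside it. The sarcoglycans are membrane proteins that stabilise this link, and loss of dystrophin or of a sarcoglycan causes muscular dystrophy. Fibres also reseal tears in their membrane, for which TRIM72 (also called MG53) brings vesicles to the wound and dysferlin takes part in their fusion. Misexpression of DUX4 in muscle is the cause of facioscapulohumeral dystrophy, which is why this family of factors has been studied in myoblasts.

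Summits lay in the windows of 7 of the 9 genes (77.8%, exact binomial interval 40.0 to 97.2%), against 63.0% of all 21631 protein-coding genes on the autosomes and X under the same rule. The interval of the 9 genes includes the share of all genes. Long genes fill more of the genome, so the counts were read per length. Over the 9 windows there were 15.1 summits per Mb (11.6 to 19.3), against 19.5 per Mb in the rest of the assembly, a ratio of 0.774 (0.595 to 0.990). Of the 63 summits, 48 lay in *Dmd* and *Sgcd*, which held 83.7% of the window length, and *Dmd* lies on the X chromosome, where density was 13.6 per Mb. At the mean density of each gene's own chromosome the 9 windows would hold 64.9 summits, close to the 63 found. This is a match of totals only. *Dmd* lay below its chromosome, at 10.3 against 13.6 per Mb. *Dysf*, *Sgca* and *Sgcb* also lay below theirs, and the remaining genes lay above. Without *Dmd* the density was 21.9 per Mb, above that of the rest of the assembly. The other 7 genes together had 15 summits, or 22.0 per Mb (12.3 to 36.4).

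**Figure D1:**
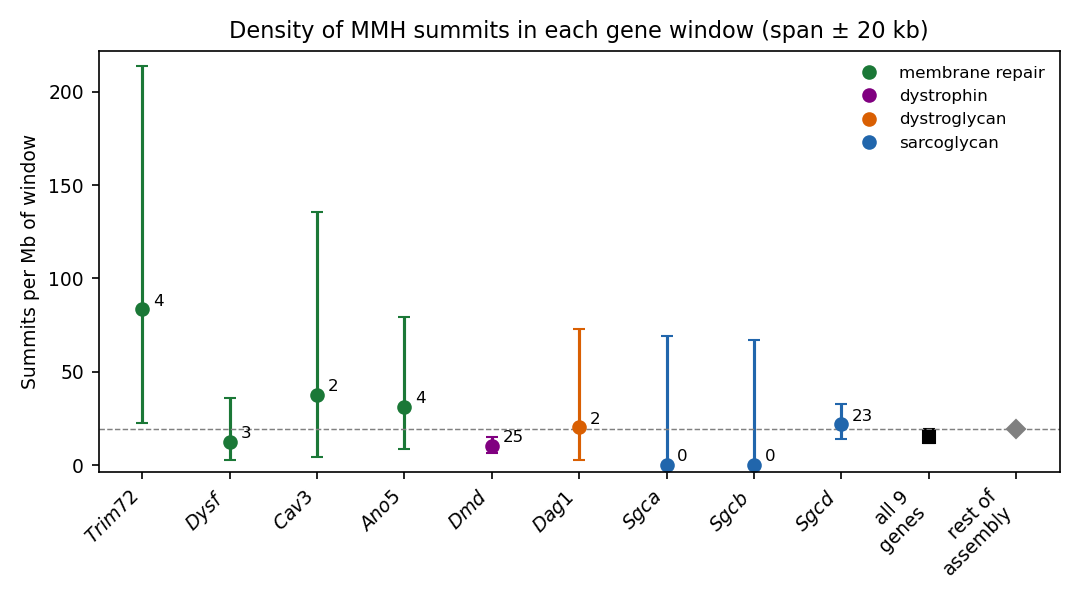
Summits per Mb of window (gene span plus 20 kb on each side) for each of the 9 genes, for all 9 pooled and for the rest of the assembly. Bars are 95% exact Poisson intervals, the number beside each point is its count of summits, and the dashed line is the rest of the assembly at 19.5 per Mb. *Trim72* is the densest window at 83.5 per Mb, *Dmd* lies at 10.3, and *Sgca* and *Sgcb* have 0 summits.

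The summits were of ordinary strength for this list. Fold enrichment is the authors' ratio of the fragments over the summit (the pileup) to the local background, each with 1 added. Its median was 7.58 at the 63 summits, against 8.02 over all peaks, with a range of 2.46 to 91.2. Enrichment reached 10-fold at 26 of the 63 (41.3%, interval 29.0 to 54.4%), against 38.1% of all peaks, so the share of strong peaks did not stand apart from that of the list. Median pileup was 39 fragments at these summits, against 41 over all peaks, and median width was 426 bp, against 430 bp. The local background was at its floor of 4.01 fragments for 54 of the 63 and for 78.0% of all peaks. At such peaks fold follows from pileup alone, so the medians of fold and pileup are not separate measures of strength. The highest local background among the 63 was 6.73 fragments. None of these peaks lay over a raised control signal of the kind found at 10 fragments or more elsewhere in the table.

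No summit lay within 1 kb of a start site of any of the 9 genes, where a summit was found for 5.44% of the 17274 protein-coding genes with a start site in the RefSeq promoter table. Within 5 kb there was a summit for 3 of the 9 genes, against 20.3% of those coding genes. These were *Cav3*, with a summit 3007 bp upstream of its start site, *Dmd*, with a summit 3425 bp upstream of the first of its listed start sites, and *Trim72*, with a summit 4536 bp upstream. The 250 bases before each of these start sites are printed from RefSeq (GRCm38.p6, the assembly of mm10) because they are the promoters nearest to a summit. Capitals mark the 5-letter stretches TGATT and AATCA, which are reverse complements of each other. They lie at chr7:128004128-128004377 for *Trim72*, chr6:112459255-112459504 for *Cav3* and chrX:82948620-82948869 for *Dmd*, all on the plus strand.
Trim72: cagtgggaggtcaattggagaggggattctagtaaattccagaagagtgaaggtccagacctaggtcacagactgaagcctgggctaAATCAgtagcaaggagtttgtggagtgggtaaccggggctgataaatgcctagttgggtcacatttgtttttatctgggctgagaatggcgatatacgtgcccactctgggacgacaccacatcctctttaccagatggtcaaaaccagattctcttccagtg
Cav3: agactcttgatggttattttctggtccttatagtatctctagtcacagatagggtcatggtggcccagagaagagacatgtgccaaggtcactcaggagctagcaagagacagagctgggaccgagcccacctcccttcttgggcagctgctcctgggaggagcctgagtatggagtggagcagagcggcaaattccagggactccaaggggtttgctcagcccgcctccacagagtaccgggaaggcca
Dmd: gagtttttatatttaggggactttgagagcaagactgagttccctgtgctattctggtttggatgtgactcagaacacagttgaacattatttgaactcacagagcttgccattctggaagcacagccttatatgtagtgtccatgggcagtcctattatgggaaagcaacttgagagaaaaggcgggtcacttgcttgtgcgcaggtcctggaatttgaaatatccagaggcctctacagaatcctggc

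The *Trim72* promoter held 1 AATCA and the promoters of *Cav3* and *Dmd* held neither stretch, while 33.7% of 32817 promoter windows held at least 1. Longer arrangements related to the binding sequences of Dux and DUX4 were searched on both strands. The first, TGATT followed by 1 free base and AATCA, was present in 0.0335% of all 300-base promoter windows. The second, TAAT followed by 2 free bases and AATCA, was present in 0.350%. No promoter window held both. Among the 377 promoter windows that contained a summit, the shares were 1.86% and 3.18%. Neither was found in any of the 12 promoter windows listed for the 9 genes, and none of those 12 windows contained a summit. The sequence under the peaks themselves was not analysed here.

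With flanks of 20 kb, *Trim72* had the strongest peak and the densest window of the 9 genes. The gene, which encodes a muscle protein of the tripartite motif family, spans 128003462 to 128011393 on chromosome 7 and had 4 summits in a window of 47.9 kb, or 83.5 per Mb (22.7 to 214). All 4 lay outside the gene. The strongest peak, at 127999476 to 128000836, had a pileup of 456 fragments and 91.2-fold enrichment (83.0 to 99.9), and it ranked 113th of the 51356 peaks by fold. Its summit lay 3620 bp upstream of the span, 5975 bp from *Pycard*, which encodes an inflammasome adaptor. Further upstream, a peak at 127987367 to 127987869 had 85 fragments and 17.2-fold enrichment (13.7 to 21.2), and its summit was nearer to *Pycard* (3755 bp) than to *Trim72* (15844 bp). Downstream, a pair of summits 1324 bp apart had 145 fragments and 29.1-fold enrichment (24.6 to 34.2) at 128024375 to 128024897, and 37 fragments and 7.58-fold (5.40 to 10.4) at 128025794 to 128026132. Both were nearer to the pseudogene *Gm5738* than to *Trim72*. Among protein-coding genes with a summit in the window, 69 of 13633 (0.506%) had a higher best fold than *Trim72*. Of the 11655 coding genes with a span under 20 kb, 230 had a denser window, while the median of that class was 16.9 per Mb.

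*Dysf*, which encodes dysferlin, a calcium-binding membrane protein mutated in limb-girdle muscular dystrophy, had 3 summits in 243 kb, or 12.4 per Mb (2.55 to 36.1). The median of coding genes of 100 to 500 kb was 18.7 per Mb. The gene spans 84008361 to 84211060 on chromosome 6. The peak at 84049951 to 84050544, 41.9 kb into the gene, had 92 fragments and 18.6-fold enrichment (15.0 to 22.7). A second, at 84205355 to 84205824 near the far end of the gene, had 76 fragments and 15.4-fold enrichment (12.1 to 19.2). The third lay 12602 bp downstream, at 84223442 to 84223827, with 40 fragments and 8.18-fold enrichment (5.90 to 11.1). The intervals of the pair inside the gene overlap, so their order is not settled by the counts.

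*Cav3*, which encodes the muscle form of caveolin, a coat protein of membrane pits, had 2 summits in 53.4 kb, or 37.5 per Mb (4.54 to 135). It spans 112459505 to 112472872 on chromosome 6. The stronger peak, at 112467534 to 112468037 inside the gene, had 56 fragments and 11.4-fold enrichment (8.64 to 14.7). The weaker, at 112456328 to 112456618, had 24 fragments and 4.99-fold enrichment (3.27 to 7.32), and its summit lay inside the long noncoding RNA gene *LOC115490429*.

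*Ano5*, which encodes a protein of the anoctamin family linked to limb-girdle muscular dystrophy, had 4 summits in 129 kb, or 31.1 per Mb (8.47 to 79.6), all of them weak. It spans 51510007 to 51598707 on chromosome 7. Inside the gene the peaks had 33 fragments and 6.78-fold enrichment (4.73 to 9.44) at 51578473 to 51578782, 25 fragments and 5.19-fold (3.43 to 7.56) at 51521127 to 51521454, and 22 fragments and 4.59-fold (2.95 to 6.84) at 51587189 to 51587486. Upstream, the peak at 51501381 to 51501718 had 26 fragments and 5.21-fold enrichment (3.47 to 7.54), with its summit inside the long noncoding RNA gene *Gm33190*. None of the 4 reached the median fold of all peaks, and their intervals overlap one another. *Ano5* and *Trim72* thus had the same number of summits with a best fold of 6.78 at *Ano5* and 91.2 at *Trim72*.

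**Figure D2:**
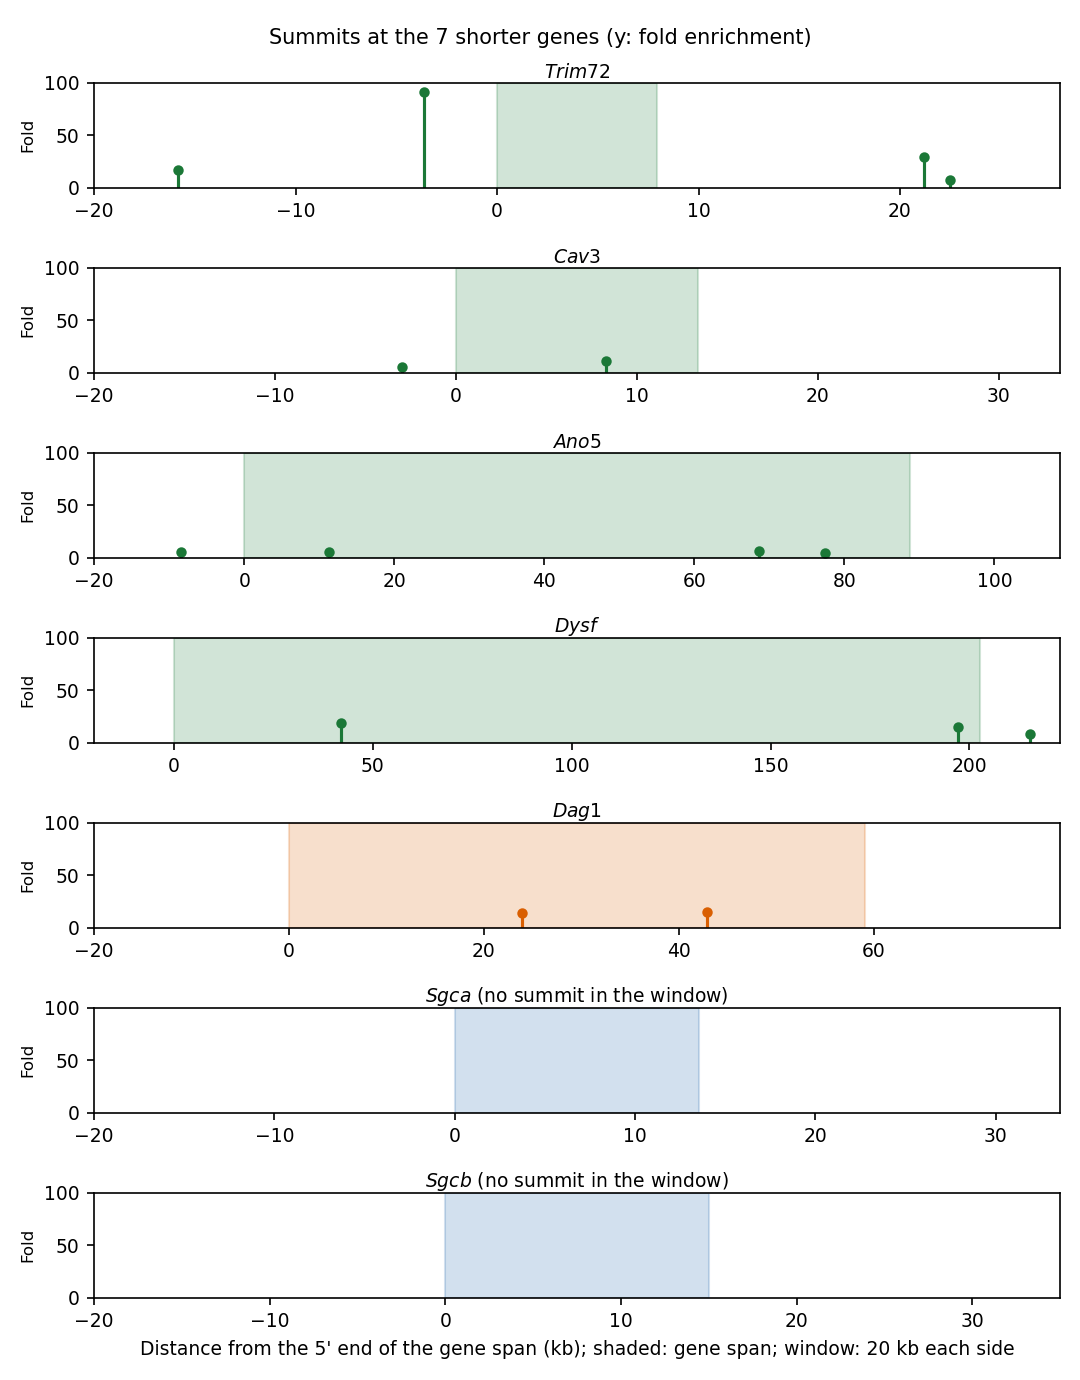
Fold enrichment (vertical axis) of each summit against its distance from the 5′ end of the gene span in kb, for the 7 genes other than *Dmd* and *Sgcd*. Shading marks the gene, and each panel shows the window of 20 kb on either side. The tallest summit, 91.2-fold, stands upstream of *Trim72*, and the *Ano5* summits are all under 7-fold.

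*Dag1*, which encodes dystroglycan, had 2 summits in 99.1 kb, or 20.2 per Mb (2.44 to 72.9). It spans 108204861 to 108263977 on the minus strand of chromosome 9, and both summits lay inside it. The peak at 108220773 to 108221293 had 79 fragments and 15.0-fold enrichment (11.9 to 18.6), over a local background of 4.34 fragments. The peak at 108239771 to 108240262 had 70 fragments and 14.2-fold enrichment (11.1 to 17.8). The intervals overlap almost entirely.

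*Dmd*, the dystrophin gene, had the largest count and the lowest density of the 7 genes with a summit. It spans 82814664 to 85205050 on the X chromosome and held 25 summits, all inside the gene, or 10.3 per Mb (6.66 to 15.2). The X chromosome as a whole had 13.6 per Mb, which lies inside that interval. Of the 59 protein-coding genes of 1 Mb or more, *Dmd* ranked 55th by density, in a range of 8.36 to 58.3 with a median of 19.5 per Mb. Its best fold ranked 44th of those 59.

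The strong *Dmd* summits lay mostly toward the 3′ end. Counted from the 5′ end of the span, the first 500 kb held 5 summits and none reached 10-fold, the next 500 kb held 4, then 3, then 5, and the last 390 kb held 8, or 20.5 per Mb. Of the 9 summits at 10-fold or more, 6 lay in that last stretch. Downstream of the second start site of the promoter table, 2234 kb into the span, there were 5 summits in 177 kb including the flank, or 28.3 per Mb, and 4 of them reached 10-fold. Shorter dystrophin forms are known to start within the gene. Any link of these summits to those forms was not tested. The rest of the assembly had 19.5 per Mb, and a density from 5 or 8 summits is uncertain. These divisions were made after the values were seen and were not tested.

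The 5 strongest *Dmd* peaks began with one in the 5′ part, at 83516562 to 83517181, which had 149 fragments and 29.9-fold enrichment (25.3 to 35.1). The next had 106 fragments and 21.3-fold enrichment (17.5 to 25.8) at 85103440 to 85103996. The third had 98 fragments and 19.7-fold enrichment (16.1 to 24.0) at 84861270 to 84861776. The remaining ones had 75 fragments and 15.2-fold (12.0 to 19.0) at 85182433 to 85182972, and 67 fragments and 13.6-fold (10.6 to 17.2) at 85072173 to 85072664. The interval of the first overlaps that of the second and lies above those of the other 3. The weakest *Dmd* peak, at 2.46-fold (1.51 to 3.81), had a local background of 6.73 fragments, the highest among the 63. The longest stretch without a summit was 311 kb, and the median distance between neighbours was 71.1 kb.

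*Sgcd*, which encodes delta-sarcoglycan, is also very long and had the higher density of the pair. It spans 46971077 to 47989451 on the minus strand of chromosome 11 and held 23 summits, all inside the gene, or 21.7 per Mb (13.8 to 32.6). The chromosome as a whole had 18.7 per Mb. Among the 59 genes of 1 Mb or more it ranked 27th by density and 22nd by best fold, near the middle of both orders. The intervals of *Sgcd* and *Dmd* overlap only between 13.8 and 15.2 per Mb, and the difference was not tested.

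Along *Sgcd*, the first 126 kb and the last 155 kb held none, and the stretches of 200 kb between 0 and 1000 kb from the 5′ end held 4, 7, 1, 7 and 4, counts whose differences were not tested. The 5 strongest were 46.9-fold (41.1 to 53.3) with 234 fragments at 47620193 to 47620945, 38.5-fold (33.3 to 44.3) with 192 fragments at 47660579 to 47661178, 29.1-fold (24.6 to 34.2) with 145 fragments at 47749131 to 47749737, 26.5-fold (22.2 to 31.4) with 132 fragments at 47126066 to 47126727, and 15.4-fold (12.1 to 19.2) with 76 fragments at 47738786 to 47739269. Of these, 4 lay upstream of the only *Sgcd* start site in the promoter table, which stands 610 kb into the span. In all, 13 of the 23 summits lay before that site, at 20.6 per Mb, and 10 after it, at 23.4 per Mb. The nearest other gene to each upstream summit was a pseudogene or a small nuclear RNA gene. Except for the summit 6932 bp from that site, the upstream summits were assigned to *Sgcd* only because the RefSeq gene span extends over them.

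**Figure D3:**
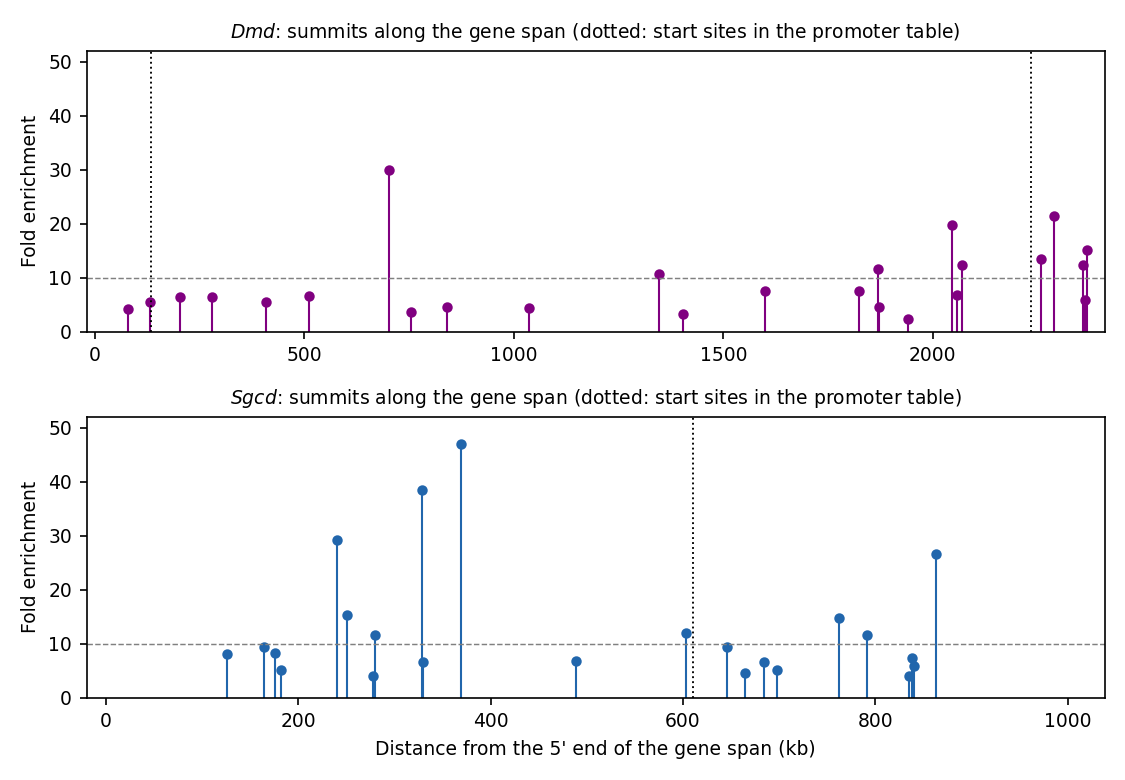
Fold enrichment of each summit against its distance in kb from the 5′ end of the span of *Dmd* (above) and *Sgcd* (below). Dotted lines are start sites of the promoter table and the dashed line is 10-fold. Of the 9 *Dmd* summits at 10-fold or more, 6 lie beyond 2000 kb, while the 3 tallest *Sgcd* summits lie before its start site.

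*Sgca* and *Sgcb*, which encode alpha- and beta-sarcoglycan, had no summit in their windows of 53.6 and 55.0 kb. A count of 0 allows up to 3.69 summits, or 68.9 per Mb at *Sgca* and 67.1 at *Sgcb*, so an average density could not have been told from none. *Sgca* spans 94962777 to 94976327 on chromosome 11 and *Sgcb* 73632749 to 73647737 on chromosome 5. The nearest summit lay 37674 bp from *Sgca* with 12.8-fold enrichment and 36202 bp from *Sgcb* with 9.77-fold enrichment. Of the 4 genes under 20 kb among the 9, *Trim72* and *Cav3* had a summit, against 50.5% of all coding genes of that length. Just beyond the 20 kb limit, the closest summit among the other genes lay 22417 bp from *Dysf* at 4.74-fold, and the farthest inside it lay 15844 bp from *Trim72*.

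**Figure D4:**
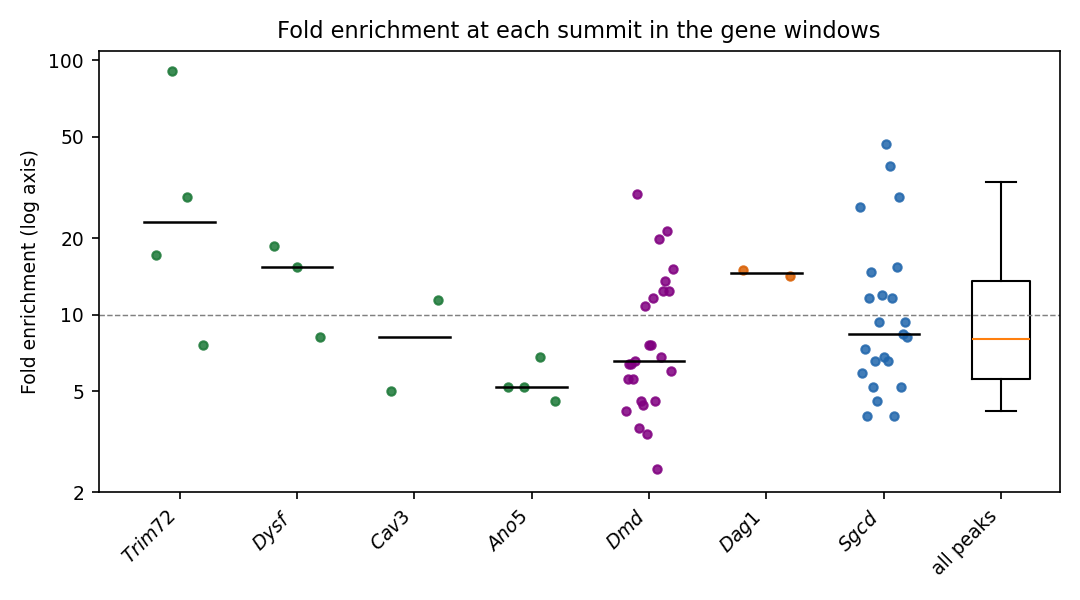
Fold enrichment (log axis) of each of the 63 summits by gene, with a bar at the median of each gene, beside all peaks of the table (box: quartiles and median, whiskers: 5th and 95th percentiles). The median of all peaks is 8.02 and the 95th percentile is 33.1. Summits above that percentile are the strongest one at *Trim72* and the 2 strongest at *Sgcd*, and *Sgca* and *Sgcb* have none to show.

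Other genes of the same pathways, in lists of 52 genes that were all found in the gene table, had a summit in 36 cases (69.2%, interval 54.9 to 81.3%), against 63.0% of all coding genes. Their windows held 22.9 summits per Mb. The median best fold was 18.6 for *Trim72* and the other 6 genes with a summit, 16.8 for these 36 and 12.2 for all coding genes with a summit. The best fold was higher in longer genes, with medians over coding genes of 9.97 under 20 kb, 12.2 at 20 to 100 kb, 18.4 at 100 to 500 kb and 32.5 from 500 kb, so these medians are not matched for length.

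Further parts and partners of the dystrophin complex had a summit in 14 of 16 cases (87.5%, interval 61.7 to 98.4%), at 23.6 per Mb over their windows. This list also counted utrophin (*Utrn*) and the laminin genes *Lama2*, *Lamb1* and *Lamc1*. The interval includes, at its lower end, the 63.0% of all coding genes, and several of these genes are long, while a summit was found for 94.9% of coding genes of 100 to 500 kb and 99.6% of longer ones. The highest best folds were 71.4 at *Sgcz* (zeta-sarcoglycan), 58.6 at *Sntb2* and 47.9 at *Sntb1* (syntrophins, adaptors that bind dystrophin), and 39.9 at *Lama2* (the laminin chain of the muscle basement membrane). The *Lama2* summit lay 13544 bp outside the gene and only 1450 bp from the protein-coding gene *Gm30534*, and the best summit inside *Lama2* had 19.5-fold enrichment. *Sntb1* lies on chromosome 15, which had 27.8 summits per Mb, more than the autosomes and X as a whole.

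Enzymes that add sugars to dystroglycan, without which it cannot bind laminin, had a summit in 8 of 13 cases (61.5%, interval 31.6 to 86.1%), at 21.4 per Mb, a share close to the 63.0% of all coding genes. Best folds included 26.3 at *Pomgnt1* and 22.1 at *B4gat1*, both of which encode glycosyltransferases of this pathway. The *Pomgnt1* summit lay 638 bp downstream of the gene and 1399 bp from the protein-coding gene *Tspan1*, and the summit inside *Pomgnt1* had 9.97-fold enrichment. Further genes of membrane repair and caveolae had a summit in 14 of 23 cases (60.9%, interval 38.5 to 80.3%), at 22.2 per Mb, also close to the 63.0% of all coding genes. They were led by *Myof* (38.7), a relative of dysferlin, *Cavin1* (32.1) and *Cavin4* (20.1), coat proteins of caveolae, and *Anxa2* (17.2), an annexin recruited to membrane wounds. The best summits of *Cavin1* and *Cavin4* lay 4996 bp and 17728 bp downstream of the genes, and neither gene had a summit inside its span. None of the 3 lists had a best fold above the 91.2 of *Trim72*.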

How the data were processed

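BWA, MACS2 and mm10 are listed in the submitters' processing notes. Peak calling by the authors used MACS 2.1.0.20151222, per the file headers, with paired-end data, the control library as background, a q-value threshold of 0.01 and at most 1 fragment per position. The filtering of mapped reads was not given in the sources used here. The authors' pileup is a signal that counts antisera fragments at the summit. The deposited −log10 p-value and q-value came from the authors' peak caller, and the deposited fold enrichment is a ratio with 1 added to pileup and background. The local background was recovered from those, and a Poisson −log10 p recomputed from it matched within 1% for 100% of 50209 peaks with a finite value. The peak scores are the authors' own and describe or rank peaks within the list.

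Summits were counted in windows of 20 kb around the gene spans of the RefSeq table for GRCm38.p6, with chromosome length taken to the last gene or peak end. Start sites and promoter sequences came from the RefSeq promoter table, which lists 12 windows for the 9 genes and is not complete. Exon positions were not used. Intervals are exact Poisson (counts, and fold with the background held fixed) or exact binomial (shares). The window count was tested on simulated data. Named were all 9 genes, every summit of a gene with 10 or fewer, the 5 strongest of a gene with more, and the 4 genes of highest best fold in each related list, of which some are not reported here. Genes, lists and this rule were chosen with earlier results of these data known. Analyses used Python 3.11.15, pandas 2.3.3 and scipy 1.17.1.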

Additional observations from a re-analysis of the deposited data

How the results depend on the processing

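No paired analysis was possible because each group has 1 library. The results were recomputed with other windows (0, 5 and 50 kb), with −log10 q of at least 5 or 10, with a fold of at least 10, with any overlap of 1 bp, without peaks of high local background, and, added after the data were seen, with spans from the outermost listed start site. Of 71 recomputed main values, 64 stayed within the counting interval or within 1.5 times. The 71 also include the pooled density with each gene left out in turn and the mean over equally weighted genes. Under each change of window, threshold, overlap, background or span, the ratio of density to the rest of the assembly stayed below 1, at 0.742 to 0.839. At 50 kb the median best fold was 15.0, the median number of summits per gene was 5 against 3, and *Sgca* and *Sgcb* had 1 summit each. At a fold of at least 10, 26 summits remained, at 6.24 per Mb, with a median best fold of 24.2. The pooled density rests on *Dmd*: without it the density was 21.9 per Mb, and the mean over the 9 genes, each weighted equally, was 24.1. From the listed start sites, *Sgcd* had 11 summits instead of 23. Within 5 kb *Trim72* kept 1 summit of 4, and inside its span it had 0. *Cav3* had 2 within 5 kb and 1 inside its span. *Cav3* was thus denser than *Trim72* in both, and the rank of *Trim72* as the densest depends on the flank. Counts of 2 to 4 summits leave densities uncertain by several fold.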

Other observations

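Among the 63 summits, 5 pairs of neighbours lay within 2500 bp of each other: 3 in *Sgcd* (1326, 2016 and 2089 bp), 1 in *Dmd* (2279 bp) and 1 downstream of *Trim72* (1324 bp). They make up 8.93% of the 56 distances between neighbouring summits of the same gene, against 8.52% of the distances over all peaks.

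Of the 63 peaks, 3 were 1000 bp or wider. Over all peaks the share was 2.61% (1339 of 51356), and a count of 3 is too small for a comparison of shares. The widest, 1420 bp, lay in *Sgcd* at 47709425 to 47710844 with a fold enrichment of 11.7, and another of 1170 bp lay in *Sgcd* at 47385330 to 47386499 with 12.0-fold enrichment, 6932 bp upstream of the listed start site. The third was the *Trim72* peak of 1361 bp with 91.2-fold enrichment. Peaks of that width had a median fold enrichment of 21.1 over the whole table, and 22.3% of them were under 12-fold. Both were singled out after their values were seen.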
